A study of Homo sapiens with 2 samples.

Results

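The PAX5 sites of human chromosome 19 in NALM6 cells are the 1189 peaks that the deposited peak table lists on this chromosome, of 21361 in the whole table (5.57%). Membership was set by position alone. NALM6 is an established human leukaemia line of B-cell precursors. The series holds 1 PAX5 chromatin immunoprecipitation (ChIP-seq) sample, made with an Abcam antibody, and 1 input control made without antibody. Both are labelled NALM6. RXL, a second name in the control's title, is not explained by the labels. The labels give no treatment, and culture for 4 days in RPMI free of phenol red with 2 mM glutamine and 10% fetal serum. Neither sample has a replicate, so no p-value is given. Intervals cover counting error, or for medians the spread among the peaks, and take peaks as independent.

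PAX5, a transcription factor with a paired domain, commits lymphoid progenitors to the B-cell lineage and holds B cells in it by activating B-cell genes and repressing those of other lineages. PAX5 is recurrently deleted or mutated in B-cell precursor leukaemia. Chromosome 19 is known for its density of genes and for its clusters of zinc finger genes. Many of these genes encode KRAB zinc finger proteins, repressors that silence transposable elements, and they arose by repeated tandem duplication. In the RefSeq gene table (GRCh38.p14), chromosome 19 held 1451 of 20056 protein-coding genes (7.23%), but 265 of 573 genes whose symbols begin with ZNF, ZFP, ZIK, ZIM, ZSCAN or ZKSCAN (46.2%). In gene order, 213 of the 265 stood in 18 uninterrupted runs of at least 5. The longest run had 27 genes, from ZNF737 to ZNF681. Runs of 24 genes reached from ZNF627 to ZNF791 and from ZNF565 to ZNF793, 1 of 23 genes from ZNF772 to ZNF256, and 1 of 20 genes from ZNF283 to ZNF180. The peaks are on hg19, so they were not assigned to genes, and the zinc finger windows below were placed in whole Mb from general knowledge of hg19.

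The tag totals were 46190180 in the ChIP pool and 25416858 in the control. For every peak, 4 quantities are used. Reads are the extended ChIP reads over the summit, recovered from the deposited pileup. The control background is the number of extended reads the caller took as local background from the input. The fold is the authors' fold enrichment, (pileup + 1) divided by (background + 1). Width is the distance between the peak borders. These are the authors' values or follow from them, and they serve to describe peaks within this list.

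PAX5 sites were dense on chromosome 19 and were of ordinary strength. The chromosome carried 20.2 peaks per Mb (95% Poisson interval 19.1 to 21.4) between its first and last summit, the second highest of 23 chromosomes after chromosome 22 with 21.8 (20.2 to 23.4), whose interval overlapped. Chromosome 17 followed with 17 (16.1 to 17.9). Sequence before the first and after the last summit does not count in these spans. They were 58.8 Mb for chromosome 19 and 33.8 Mb for chromosome 22. The ranks hold for this measure, and ranks over whole chromosome lengths were not taken. Against the other autosomes together, which carried 7.24 per Mb, the ratio was 2.79 (exact interval 2.63 to 2.96). With spans counted from base 1 it was 2.87. The median summit held 61 reads, as on the other autosomes (61). The median fold was 3.90 (order-statistic interval 3.84 to 3.99), the tenth highest of the 23, against 3.87 on the other autosomes. The middle 50% of the folds lay between 3.23 and 5.12, and the whole range was 2.00 to 15.4. The median control background was 8.0 reads, against 8.10 on the other autosomes, and it ranged from 2.12, the genome mean, at 16 peaks (1.35%) to 21.0.

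Chromosome 19 peaks were the widest of the 23 chromosomes by their median, although by a small margin. The median width was 406 bp (392 to 418), with quartiles of 302 and 553 bp. On the other autosomes the median was 382 bp. On chromosome 16, the next widest, it was 399 bp (382 to 415), on chromosome 17 394 bp (383 to 405) and on chromosome 22 390 bp (375 to 411), so the intervals of these 4 chromosomes overlapped. The upper end was not extended. Only 43 peaks (3.62%) exceeded 1000 bp, the tenth highest share, and the widest, at 2398 bp, had rank 19 in the whole table. Together the peaks covered 556 kb, or 0.945% of the span.

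**Figure D1:**
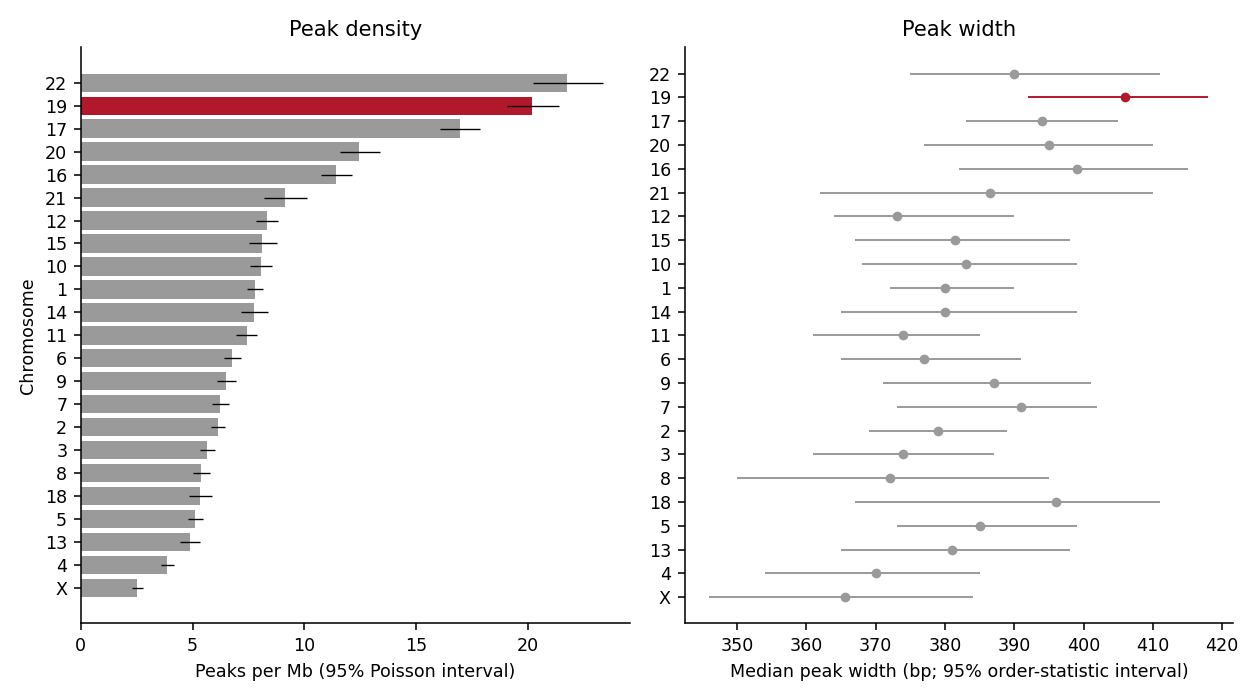
Peaks per Mb (left, bars with 95% Poisson intervals) and median peak width in bp (right, points with 95% order-statistic intervals) for chromosomes 1 to 22 and X, ordered by density, with chromosome 19 in red. Chromosome 19 is second by density between first and last summit (20.2 per Mb) and first by median width (406 bp), with intervals that overlap those of chromosome 22.

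Sites with a fold of at least 10 were more frequent than in the whole table. Of the chromosome 19 peaks, 320 (26.9%, Wilson interval 24.5 to 29.5) reached a fold of 5, where 25.0% of all peaks did, a share near the background. A fold of 10 was reached by 35 peaks (2.94%, 2.12 to 4.07), where 1.72% of all peaks did. This was the largest number on any of the 23 chromosomes, and the fourth largest share. Chromosomes 22 (3.53%), X (3.32%) and 21 (3.16%) had larger shares, with intervals that overlapped that of chromosome 19. Of the 100 peaks of highest fold in the whole table, 12 lay on chromosome 19 (12%), as did 41 of the top 500 (8.20%), against 5.57% of all peaks. None of them was near the very top, since the strongest had rank 29 by fold.

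The sites were arranged unevenly along the arms. The longest stretch without a summit, 4.61 Mb from 24270140 to 28884994, lay around the centromere and was taken as the border of the arms. The p arm held 691 peaks (28.8 per Mb, 26.7 to 31.0) and the q arm 498 (16.5 per Mb, 15.1 to 18), a density ratio of 1.74 (1.55 to 1.96). The peaks of both arms were alike in the medians of their width (412 and 393.5 bp), reads (62 and 60.5) and fold (3.93 and 3.84). Without the dense stretch at 1 to 3 Mb the ratio was 1.51. Of the 35 peaks with a fold of at least 10, 22 were on the p arm (3.18% of its peaks) and 13 on the q arm (2.61%).

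In 1 Mb bins, the short arm began with a steep rise. Bins starting at 0 to 9 Mb held, in order, 27, 59, 85, 43, 39, 22, 25, 26, 22 and 6 peaks, with a maximum at 2 to 3 Mb and a minimum at 9 to 10 Mb. The next 10 bins held 45, 31, 28, 37, 37, 15, 33, 43, 45 and 13, a second broad block that ended near 19 Mb. From 20 Mb the counts were 2, 2, 0, 4, 2, 0, 0, 0, 4 and 10, which takes in a zinc finger window and the centromere.

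The long arm filled more slowly. Bins from 30 Mb held 9, 0, 1, 9, 13, 28, 11, 3, 15 and 26 peaks, and those from 40 Mb 10, 20, 28, 1, 14, 18, 27, 30, 23 and 41. The last 10 held 33, 21, 5, 0, 25, 19, 20, 11, 15 and 8, of which the last bin is incomplete. Its dense part was thus at 46 to 52 Mb, where 175 peaks gave 29.2 per Mb (25.0 to 33.8). This was below the 50.6 (44.6 to 57.2) at 0 to 5 Mb. It was also lower than the 34.9 (31.1 to 39.0) at 10 to 19 Mb, although these intervals overlapped.

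**Figure D2:**
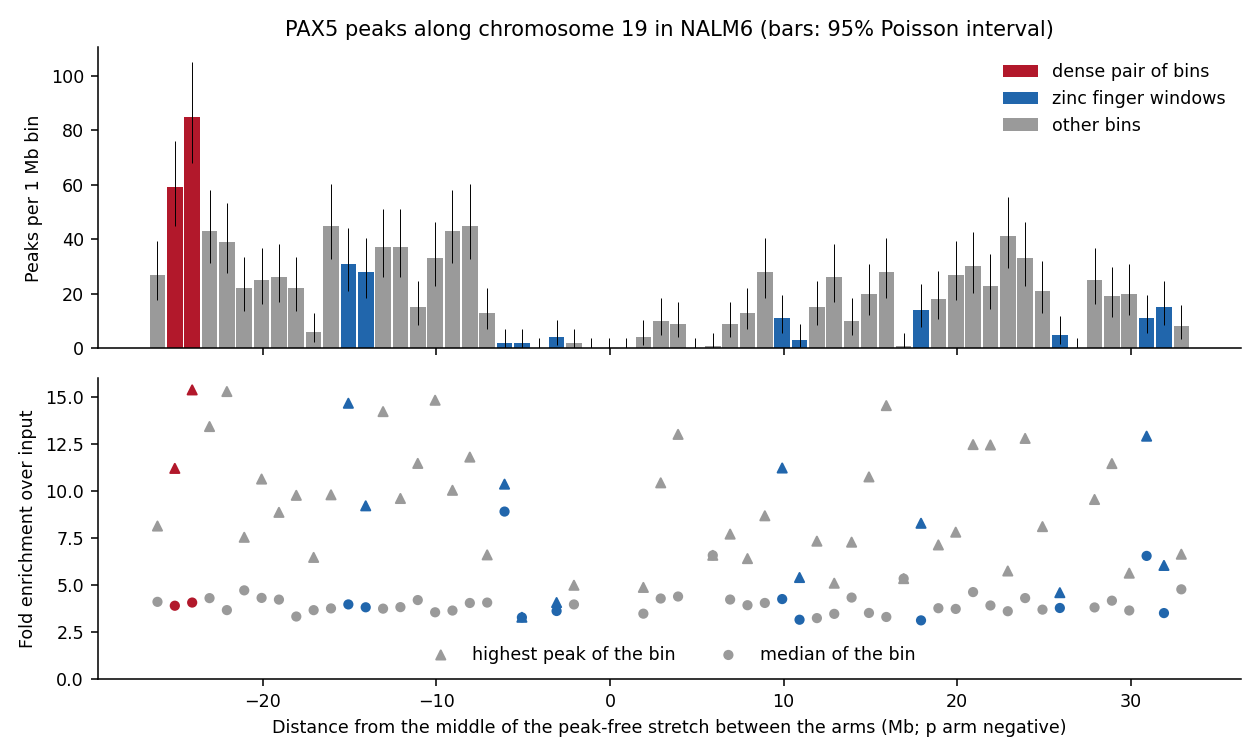
Upper panel: peaks per 1 Mb bin of chromosome 19 with 95% Poisson intervals, against distance in Mb from the middle of the peak-free stretch between the arms; the dense pair of bins is red, bins in the zinc finger windows are blue. Lower panel: the highest (triangles) and the median (circles) fold of each bin; the counts run from 0 to 85 while most medians stay near 4.

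Over the 59 complete bins the median was 19 peaks, with quartiles of 5.5 and 28. The 7 bins with at least 40 peaks held 361 (30.4%) of the chromosome's peaks. The 15 bins with 5 or fewer held 24. The 6 empty bins started at 22, 25, 26, 27, 31 and 53 Mb. The exact Poisson interval of a count of 0 reaches up to 3.69 peaks per bin, for counting error only. The bins starting at 25, 26 and 27 Mb lie in the stretch around the centromere, which also counts in the chromosome's span. Whether reads could align there was not examined.

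The fold showed no clear relation with density. Over the 46 bins with at least 5 peaks, which share both libraries, the number of peaks and the median fold gave a Spearman's rho of -0.18, and the number and the median background one of 0.08. For the median width rho was 0.32. The 46 bins include the incomplete last bin, which held 8 peaks and had the largest median width, 649.5 bp. Bin medians of the fold ran from 3.13 to 6.56, those of the background from 5.00 to 10.0 reads.

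The 2 Mb between 1 and 3 Mb formed the densest part of the chromosome. They held 144 peaks, 12.1% of the chromosome's peaks on 3.40% of its span. The density of 72.0 per Mb (60.7 to 84.8) was 3.92 times (3.27 to 4.67) that of the remainder. The stretch was chosen with earlier results of these data known, and neither this interval nor those below cover that choice. By 500 kb, the counts were 37, 22, 47 and 38, with the lowest at 1.5 to 2.0 Mb. By 100 kb the counts ranged from 1 to 12, with 1 peak at 1.7 to 1.8 Mb and 2 at 1.9 to 2.0 Mb. The bin at 2 to 3 Mb had 85 peaks (67.9 to 105) and that at 1 to 2 Mb 59 (44.9 to 76.1), a ratio of 1.44 (1.02 to 2.04). The tip of the short arm is known as gene-dense and carries, among others, TCF3, which encodes the E2A factors that act with PAX5 in early B-cell development.

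The individual sites of this stretch were hardly stronger than others. Their median fold was 4.00 against 3.88 elsewhere on the chromosome, their median reads 65.5 (58 to 71) against 60 (59 to 62), and their median width 436.5 bp (401 to 520) against 401 bp (388 to 414). The control background was level, at 7.94 against 8.0 reads. A fold of 5 was reached by 42 of the 144 (29.2%) against the 25.0% of all peaks, and a fold of 10 by 5 (3.47%, 1.49 to 7.87) against the 1.72% of all peaks. They were crowded, which a high density by itself brings about. Another summit lay within 10 kb of 82.6% of its peaks, and of 90.6% of those at 2 to 3 Mb, compared with 62.1% outside.

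The other densest bins were those at 10 to 11 Mb and 18 to 19 Mb with 45 peaks each, and those at 3 to 4 Mb and 17 to 18 Mb with 43 each. The 5 densest bins together held 277 peaks (23.3%), counting 1 of the tied pair. The bin at 49 to 50 Mb, with 41, was the densest of the long arm. Its highest fold was only 5.76, while the bin at 3 to 4 Mb reached 13.4.

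The zinc finger windows were thin as a group, but not equally so. The 6 windows covered 13 Mb, at 11 to 13, 20 to 24, 36 to 38, 44 to 45, 52 to 54 and 57 to 59 Mb. They held 126 peaks, 9.69 per Mb (8.07 to 11.5), against 23.2 (21.8 to 24.6) in the remainder of the span, a ratio of 0.418 (0.345 to 0.503). With 1 to 3 Mb left out of the remainder, the ratio was 0.462 (0.381 to 0.558). With 24 to 28 Mb left out instead, it was 0.382. Against the whole remainder, the 2 thinnest windows, at 20 to 24 and 52 to 54 Mb, had a ratio of 0.0934 (0.0496 to 0.160). Both were picked as thin with earlier results of these data known, so their low counts are no independent result. They also lower the group ratio. The windows at 36 to 38 Mb and 57 to 59 Mb had ratios of 0.302 (0.164 to 0.509) and 0.561 (0.365 to 0.826). The window at 11 to 13 Mb was not thin, with 29.5 per Mb and a ratio of 1.27 (0.962 to 1.65). That at 44 to 45 Mb had a ratio of 0.604 (0.329 to 1.02), an interval that reaches 1.

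At 20 to 24 Mb only 8 peaks were called in 4 Mb (2.00 per Mb, 0.863 to 3.94). The first pair were well enriched. The peak from 20384879 to 20385578 had 85 reads and a fold of 7.46, and that from 20674352 to 20674769 had 57 reads on a background of 2.12, a fold of 10.4. The other 6 were weak, with 25 to 54 reads and folds between 2.95 and 4.08. Between the summits at 21688566 and 23696653 no site was called over 2.01 Mb, the longest stretch without a summit after the centromere. No summit in this window lay within 10 kb of another.

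At 52 to 54 Mb 5 peaks were called (2.50 per Mb, 0.812 to 5.83), all before 53 Mb. They had 33 to 82 reads and folds between 3.08 and 4.61, so that none reached a fold of 5. The highest fold belonged to the peak from 52310577 to 52310836, with 48 reads on a background of 4.95. The most reads, 82, were in the peak from 52692710 to 52692973, with a fold of 4.06. No summit followed the one at 52692838 for 1.36 Mb, until 54057415.

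The peaks of these 2 windows also had lower medians of width and reads, although the intervals overlapped those outside all windows. The 13 had a median width of 276 bp (253 to 418) and 46 reads (30 to 62), against 410 bp (396 to 423) and 61 reads (59 to 63) outside all windows. The median control background was 4.70 reads at 20 to 24 Mb and 7.0 at 52 to 54 Mb, against 8.0 outside the windows. At 20 to 24 Mb all backgrounds (2.12 to 6.97) were below that median. The 5 peaks at 52 to 54 Mb lay on both sides of it (4.05 to 10.4). The background is known only at called peaks. No label or header states how reads that align to several copies of a duplicated gene were treated. The part of the background in the low number of peaks was not tested.

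The other windows were mixed inside. At 36 to 38 Mb, 11 of 14 peaks lay before 37 Mb, among them the highest by fold from 36390482 to 36391705 with 182 reads and a fold of 11.2. At 44 to 45 Mb, 12 of 14 lay before 44.5 Mb, with a highest fold of 8.30 in the peak from 44066592 to 44067328. At 11 to 13 Mb, the outer pieces of 500 kb held 24 and 20 peaks and the inner pieces 7 and 8. At 57 to 59 Mb the 500 kb pieces held 3, 8, 2 and 13 peaks.

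High-fold sites were found in windows too. Of the 126 peaks, 9 reached a fold of 10 (7.14%), against 26 of 1063 outside (2.45%) and 1.72% of all peaks. Of these 9, 4 lay at 11 to 13 Mb, all of them before 11.5 Mb, in the piece with 24 peaks. Another 3 lay at 57 to 59 Mb. They were the peaks from 57744329 to 57744971 with a fold of 11.3, from 57954524 to 57955061 with 12.9 and from 57985219 to 57985999 with 12.8. The last had 230 reads. The median fold over all windows was 3.82, against 3.91 outside. The windows are in whole Mb and were not checked against genes on hg19. Whether the 9 sites lie within zinc finger clusters is therefore not known.

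**Figure D3:**
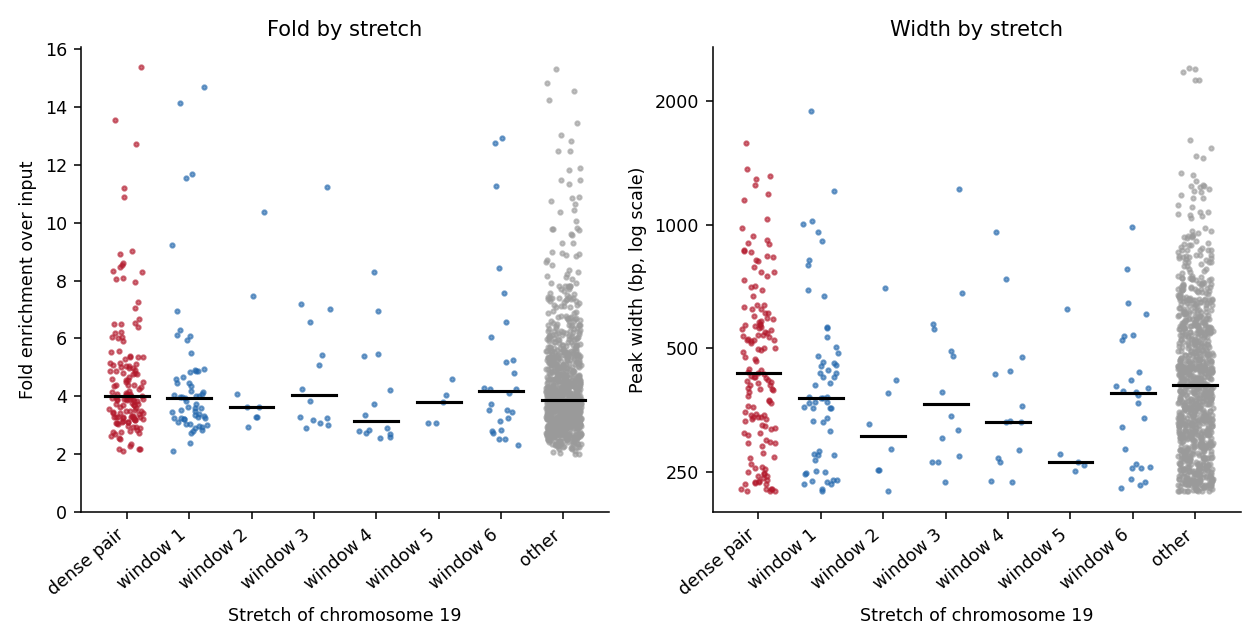
Fold (left) and width in bp on a log scale (right) of every chromosome 19 peak, by stretch; points are peaks, black lines medians, sideways scatter has no meaning. Windows 1 to 6 are the zinc finger windows in order along the chromosome (11 to 13, 20 to 24, 36 to 38, 44 to 45, 52 to 54 and 57 to 59 Mb); their medians lie between 3.13 and 4.20 in fold, and windows 2 and 5 hold 8 and 5 peaks.

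Ranked by fold, which divides by the background, the 10 highest sites stood on backgrounds of 2.12 to 8.33 reads. The peak of highest fold spanned 833 bp from 2084946 to 2085778, in the densest bin. It had 194 reads (exact Poisson interval 168 to 223) on a background of 6.0, a fold of 15.4 (13.3 to 17.7 with the background taken as fixed). The next, 928 bp from 4878236 to 4879163, had 220 reads on 6.98 and a fold of 15.3 (13.4 to 17.4). The third spanned 1117 bp from 16987491 to 16988607, with 187 reads and a fold of 14.8. The intervals of the first 10 overlapped, so their order was not resolved at this depth.

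The fourth site by fold, from 11390510 to 11391014, had 235 reads and a fold of 14.7, in only 505 bp. The seventh, from 11131257 to 11133151, had a similar 232 reads and a fold of 14.1 over 1895 bp. These 2 sites show summits of nearly equal height in peaks of very different width. The sixth, from 13215023 to 13215679, had 222 reads and a fold of 14.2. The ninth, from 3154870 to 3155559, had 226 reads and a fold of 13.4.

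A pair of the 10 had fewer reads and stood on a low background. The fifth, from 42707866 to 42708360, had 104 reads (85.0 to 126) on a background of 3.0, a fold of 14.6. The tenth, from 30935337 to 30935796, had 72 reads (56.3 to 90.7) on the genome mean of 2.12, a fold of 13. By reads they had ranks 144 and 382 on the chromosome. They were the only members of the 10 on the long arm. The other 8 had 187 to 235 reads.

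The eighth site, from 2089503 to 2090866 with 211 reads and a fold of 13.5, lay close to the first. Both belong to a run of 8 peaks from 2076439 to 2096376. Another peak of this run, from 2076439 to 2077186, had 206 reads and a fold of 12.7. The run had a median fold of 7.36 and a median of 127 reads, against 3.90 and 61 on the whole chromosome. Among the 8 runs with the most peaks, ties taken in order of position, it was the only one with a median fold above 5. A run is a series of summits with gaps of at most 10 kb, and runs were described after the values had been seen.

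**Figure D4:**
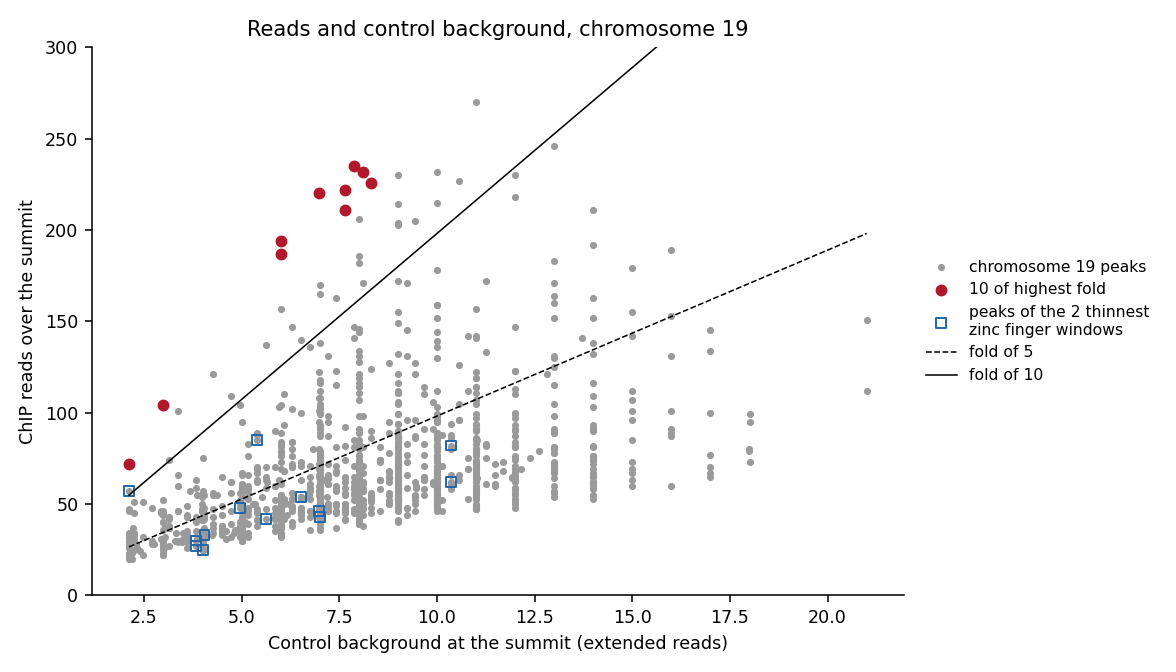
ChIP reads over the summit against control background (both in extended reads) for the 1189 chromosome 19 peaks; the dashed and solid lines mark folds of 5 and 10, red points the 10 peaks of highest fold and blue squares the 13 peaks at 20 to 24 and 52 to 54 Mb. Of the red points, 8 lie at 187 to 235 reads and the others at 104 and 72 reads, on backgrounds of 3.0 and 2.12.

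Ranked by reads, other sites came first. The most reads, 270 (239 to 304), were over the summit of the peak from 48252127 to 48253001, which also had the highest −log10 q of the chromosome, 104. Its background was 11 and its fold 12.5. The peak from 50937579 to 50938445 followed with 246 reads, but on a background of 13 its fold was 9.74. The sites from 11390510 to 11391014 and from 11131257 to 11133151 came next with 235 and 232 reads, and that from 11302392 to 11303061 also had 232, with a fold of 11.7. Of the 5 highest by reads, 3 thus lay in the bin at 11 to 12 Mb. The 10 highest by fold shared 7 members with the 10 highest by −log10 q and 4 with the 10 highest by reads.

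The widest peaks were not those of highest fold. The widest, 2398 bp from 51296848 to 51299245, had 79 reads and a fold of 3.71, below the chromosome's median fold. The second, 2395 bp from 56152945 to 56155339, had 80 reads and a fold of 5.65. The third and the fifth were neighbours, 2345 bp from 17003162 to 17005506 with a fold of 6.59 and 2249 bp from 17005667 to 17007915 with a fold of 3.07. The fourth, 2252 bp from 10223694 to 10225945, had only 56 reads and a fold of 5.56. The 10 widest shared 1 member with the 10 of highest fold.

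Over all members, fold and width rose together. Of the 43 peaks over 1000 bp, 8 had a fold of at least 10, 22 one between 5 and 10, and 13 one under 5. Peaks with a fold under 5 had a median width of 361 bp (869 peaks), those between 5 and 10 one of 523 bp (285) and those of at least 10 one of 742 bp (35). Spearman's rho of fold and width was 0.46 across the 1189 peaks, which share both libraries, and 0.42 on the other autosomes. Reads and background gave 0.61 on chromosome 19 and on the other autosomes. Every peak had to pass a q-value threshold against its background, which by itself ties reads to background. Fold and background gave -0.37 and -0.35, and the background enters the fold.

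The sites of lowest fold had ordinary read numbers on high backgrounds, which the division by the background favours. The lowest fold, 2.00, belonged to the peak from 3434995 to 3435227, with 60 reads on a background of 16.0. The next, from 49137578 to 49137886, had a fold of 2.01, and that from 42061419 to 42061651 one of 2.04, on backgrounds of 14 and 17. By reads the weakest sites were others. The peak from 4445129 to 4445371 had 20 reads on the genome mean of 2.12 and a fold of 3.85. A peak at 5 to 9 Mb also had 20 reads. The highest background, 21.0 reads, was shared by the peaks from 3428493 to 3429007, with a fold of 2.85, and from 54889522 to 54890421, with a fold of 3.82.

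Neighbouring sites were close. The median distance between neighbouring summits was 13.2 kb (quartiles 3.51 and 43.4 kb), the shortest of the 23 chromosomes, ahead of chromosomes 17 (15.1 kb) and 22 (15.2 kb). Another summit lay within 10 kb of 768 peaks (64.6%, 61.8 to 67.3), compared with 63.0% (60.5 to 65.6) on chromosome 17, 61.4% (57.8 to 64.9) on chromosome 22 and 51.2% on the other autosomes. A larger number of peaks per Mb by itself shortens these distances. By density between first and last summit chromosome 22 was higher, and its interval of the share overlapped that of chromosome 19.

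**Figure D5:**
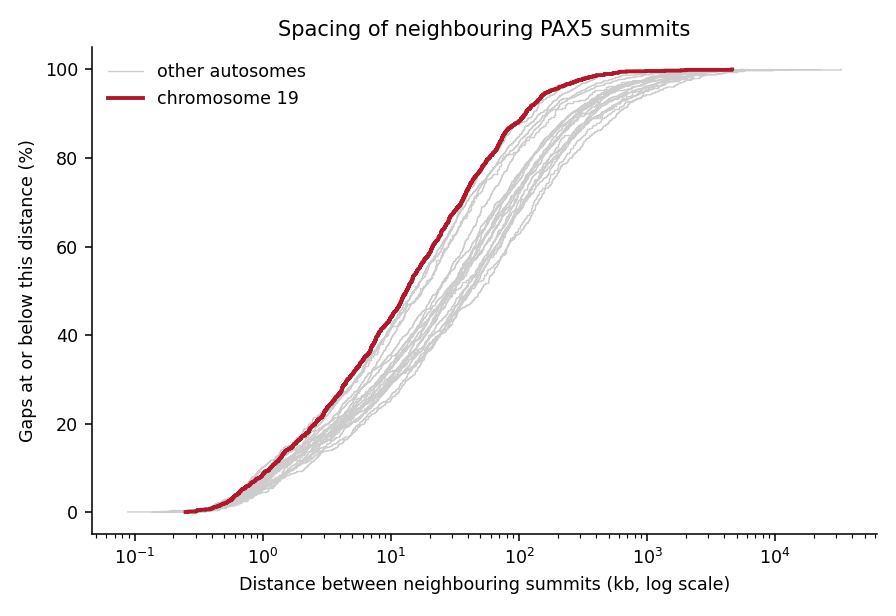
Share of gaps (%) at or below a given distance between neighbouring summits (kb, log scale), 1 line per autosome, chromosome 19 in red. The red line lies at or near the left edge of the grey lines over most distances, with a median of 13.2 kb.

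The 1189 peaks fell into 665 runs, of which 421 were single peaks. The 37 runs of at least 5 peaks held 241 peaks, and 22 of these runs were on the p arm, 6 of them starting at 1 to 3 Mb. The 2 largest runs had 12 peaks each. That from 1249002 to 1275867 packed them into 26.9 kb, with folds from 2.19 to 9.04, and that from 54857559 to 54905392 spread them over 47.8 kb, with folds from 2.62 to 9.30. A run of 10 from 2287884 to 2337728 had no fold above 5.54. A run of 9 from 13261058 to 13284419 had a median fold of 4.94 and reached 11.3.

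Crowded and lone sites were of similar strength. The 768 peaks with a close neighbour had a median fold of 3.84, and 27.1% of them reached a fold of 5. The 421 without one had 3.97 and 26.6%, against the 25.0% of all peaks. A fold of 10 was reached by 2.47% (1.59 to 3.83) of the crowded and 3.80% (2.35 to 6.08) of the lone peaks. The share of all peaks was 1.72%. The intervals overlapped, and on the other autosomes the crowded and lone shares were 1.69% and 1.54%. Crowded peaks were wider, with medians of 422.5 and 375 bp. The other autosomes showed the same difference in width, with 404 and 363 bp.

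The cleaned peak list that accompanies the table kept 1188 of the 1189 peaks, all with identical borders. The peak left out was the first of the chromosome, from 247129 to 247417, with 55 reads on a background of 7.0 and a fold of 3.91. No source used here gives the reason.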

How the data were processed

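Per the submitters' processing notes, the aligner was BWA and the build hg19. MACS2 2.1.1.20160309 compared a pooled ChIP alignment with a combined control at a q-value threshold of 0.05, extending 50 bp reads to 225 bp, per the file headers. How many libraries the pool holds is not stated there. The pileup signal deposited by the authors is scaled to the control depth (factor 0.550), the deposited fold enrichment is a ratio to the local control, and the deposited −log10 p and q values come from the same comparison. Positions count from 1.

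Dividing the pileup by the scale gave the reads over each summit (100% whole within 0.005 pileup units), and the background from pileup and fold with the caller's pseudocount of 1. Peaks were assigned to 1 Mb bins by their summits. Counts carry exact Poisson 95% intervals, density ratios exact conditional intervals, medians order-statistic intervals and shares Wilson intervals. With 1 sample per group no test was run. The scripts were tested on simulated peaks, in Python 3.11.15 with scipy 1.17.1, pandas 2.3.3, numpy 2.4.6 and matplotlib 3.10.9.

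The chromosome, stretches and windows were chosen with earlier results of these data known. Named are the 10 peaks of highest fold, the 5 with most reads, the 5 widest, the 3 of lowest fold, the 5 densest and the empty bins, the 5 longest gaps, the strongest peak of a window, and peaks changed in the cleaned list. The runs, the peaks of highest background, and the further peaks with a fold of at least 10 were named after their values were seen. Alternatives were merging peaks within 500 bp, the cleaned list, a −log10 q of at least 5, a fold of at least 5, and other bins, windows, distances and rankings. Gene assignment, start-site and motif shares and a gene list were planned. They need hg19 annotation and sequence, not used here.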

Additional observations from a re-analysis of the deposited data

How the results depend on the processing

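Of 53 alternatives for 14 results, 35 left the value within its interval, or the count within 1.5 times, and no ratio crossed 1. The 10 alternatives for arms, the 1 to 3 Mb ratio, the share with a fold of at least 10 and the added 9 to 10 Mb bin were chosen after seeing the data. Requiring a fold of at least 5 left 320 peaks, 42 of them at 1 to 3 Mb, and a density ratio to the other autosomes of 3.05 (2.79 with all peaks). Merging within 500 bp gave a median width of 428 bp, a median fold of 4.01 and 57.8% with a close neighbour. A −log10 q of at least 5 gave 449 bp, 69 reads, a fold of 4.43, 67 peaks in the densest bin and 55.7% with a close neighbour, by construction fewer and stronger peaks. The densest bin of 2 Mb had 64 peaks per Mb. The share with a neighbour was 91.1% within 50 kb and 50.2% within 5 kb. The zinc finger ratio was 0.0934 for the 2 thinnest windows and 0.334 with windows narrowed by 200 kb. The arm ratio was 1.51 without 1 to 3 Mb. Ranking by pileup kept 4 of the 10 strongest sites. Beyond what follows from a setting itself, the cause was not tested. No paired analysis was possible because neither sample has a replicate. Depth limits the order of the strongest sites, and 1 pooled ChIP gives no spread between libraries. The 5 alternatives for start sites and motifs were not run.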

Other observations

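Thin stretches were also found outside the 6 fixed windows, and these were singled out after their values were seen. The bin at 9 to 10 Mb, between bins of 22 and 45 peaks, held 6 (exact Poisson interval 2.20 to 13.1). They were spread evenly, 3 in each 500 kb, none had another summit within 10 kb, and the highest by fold, from 9136877 to 9137425, had 116 reads and a fold of 6.48. In RefSeq gene order, a run of 11 zinc finger genes from ZNF699 to ZNF846 on the short arm belongs to none of the windows and may lie in this bin, which was not checked on hg19. With the bin added to the windows, their density ratio to the remainder was 0.400. The bin at 43 to 44 Mb, between bins of 28 and 14, held 1 peak (0.0253 to 5.57), from 43057533 to 43057830 with 32 reads on a background of 2.48, and no summit followed it for 0.980 Mb. On the long arm near the centromere, no summit was called for 1.84 Mb between 30941155 and 32778186. The border on the left of that gap lies 5642 bp from the tenth strongest site of the chromosome. The peak on its right, from 32777874 to 32778500, had 142 reads and a fold of 6.59, and was alone in its bin.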
